A study of Mus musculus with 2 samples.

Results

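The 33 genes described here encode the enzymes of glycolysis, the glucose and lactate transporters that feed and drain it, and the enzymes of the pentose phosphate pathway. They were taken by gene symbol from the deposited gene tables, after gene IDs had been matched to a GENCODE annotation of the mouse genome. All 33 had a row among 43346 mouse gene IDs, of which 21461 were nuclear protein-coding genes. The data were 2 total RNA libraries of primary cells from adult male C57BL/6J mice of 5 to 6 weeks, labelled megakaryocyte, with no genetic change or treatment stated. The labels called them biological replicates 1 and 2 of 1 group and gave the same donor for both, and they are library 1 and library 2 below. Ribosomal RNA had been depleted from 100 ng of RNA. The size range given was 221 to 1000 nucleotides for library 1 and 200 to 1000 nucleotides for library 2. The design held no second condition, so the only comparisons were between genes, between transcripts and between the libraries.

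Glycolysis splits glucose into pyruvate and captures part of its energy as ATP and NADH, and lactate dehydrogenase returns the NADH to NAD+ by turning pyruvate into lactate. The pentose phosphate pathway leaves glycolysis at glucose 6-phosphate, makes NADPH in its oxidative branch and ribose 5-phosphate in its non-oxidative branch. Most steps can be run by several isozymes from separate genes, which differ in tissue and regulation. Neutrophils are known for leaning on glycolysis for ATP, and their oxidative burst draws on NADPH.

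The label and the marker genes differed. Of 15 megakaryocyte and platelet markers, 13 lay under 1 TPM (a read count scaled by transcript length and by library) in both libraries, and Gp5 and Gp6 had 0 counts. The 2 highest were Itgb3, at 5.92 and 5.66 TPM in libraries 1 and 2, and Itga2b, at 3.26 and 4.89 TPM. All 13 neutrophil markers reached 10 TPM in both libraries, with S100a8 at 7266 and 7929 TPM and S100a9 at 4471 and 3427 TPM. Of 11 monocyte and macrophage markers 9 did so, led by Lyz2 at 5969 and 8031 TPM and Ly6c2 at 768 and 901 TPM. Other lists were lower, with Ear2 at 167 and 161 TPM and Mcpt8 at 81.5 and 93.6 TPM among markers of mast cells, basophils and eosinophils, Hba-a2 at 67.0 and 27.3 TPM and Hbb-bt at 12.8 and 10.4 TPM among erythroid markers, and Gzma at 12.1 and 5.34 TPM and Cd3g at 9.87 and 7.17 TPM among lymphoid markers. The libraries are therefore called the libraries labelled megakaryocyte, and in such bulk RNA fewer cells of a type and less RNA per cell cannot be told apart.

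Pyruvate kinase, which makes pyruvate and ATP at the end of glycolysis, is shown at sequence level because a choice between exons of Pkm sets which enzyme is made. The PKM1 and PKM2 transcripts carry alternative exons of 167 bases each, and the PKM2 enzyme is the form open to allosteric control. The exon of Pkm-201, the PKM2 transcript, lies at chr9:59675568-59675734 of mm10 on the plus strand. The exon of Pkm-202, the PKM1 transcript, lies upstream at chr9:59675029-59675195. Both are exon 9 of their transcript, were read from the GENCODE M21 transcript sequences, and are 61.7% identical. Capitals mark the 64 bases at which the exons differ when set side by side without gaps, 5′ to 3′.
PKM2 exon of Pkm-201: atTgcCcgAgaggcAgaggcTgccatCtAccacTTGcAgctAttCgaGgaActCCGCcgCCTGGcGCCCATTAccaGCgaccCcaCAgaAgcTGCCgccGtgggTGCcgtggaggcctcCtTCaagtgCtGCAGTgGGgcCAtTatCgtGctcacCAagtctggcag
PKM1 exon of Pkm-202: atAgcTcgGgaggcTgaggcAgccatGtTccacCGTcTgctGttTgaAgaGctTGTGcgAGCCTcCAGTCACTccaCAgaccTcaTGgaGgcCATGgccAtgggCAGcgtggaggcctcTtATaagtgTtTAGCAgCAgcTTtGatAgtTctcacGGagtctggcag

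Nearly all Pkm RNA was of the PKM2 form. Pkm-201 held 95% of the gene's TPM in library 1 and 96.0% in library 2 (95.5% ± 0.764, SD, n = 2), and Pkm-202 held 5.04% and 3.96%. In levels, Pkm-201 had 203 and 244 TPM. The ratio of PKM2 to PKM1 was 18.8 in library 1 and 24.3 in library 2. Both transcripts are 2432 bases long, and estimated counts of 44994 and 60960 for Pkm-201 against 2386 and 2513 for Pkm-202 gave ratios of 18.9 and 24.3. The difference between the forms was thus far larger than the difference between the libraries. No test of the ratio was made.

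The pathway as a whole was read well above the typical gene. Of the 33 genes, 30 reached 1 TPM in both libraries, against 42.4% of all nuclear protein-coding genes. At 10 TPM or more in both there were 21 of 33, against 16.9% of all genes, and at 100 TPM or more there were 5, against 1.62%. The median over the members of the mean level was 18.4 TPM (17.6 and 21.5 TPM in libraries 1 and 2), against 0.280 TPM over all nuclear protein-coding genes. On other scales the members' median was 72.5 TPM when TPM was rescaled to nuclear protein-coding genes alone, and 42.3 FPKM. Together the members summed to 1558 and 1758 TPM, which was 0.649% and 0.656% of the TPM of nuclear protein-coding genes. The 5 above 100 TPM were Gapdh, Pkm, Taldo1, Aldoa and Eno1, and the only members under 1 TPM in both libraries were Aldoc and Eno2. All levels below are TPM over the whole transcriptome, of which nuclear protein-coding genes held 24.0% and 26.8%.

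**Figure D1:**
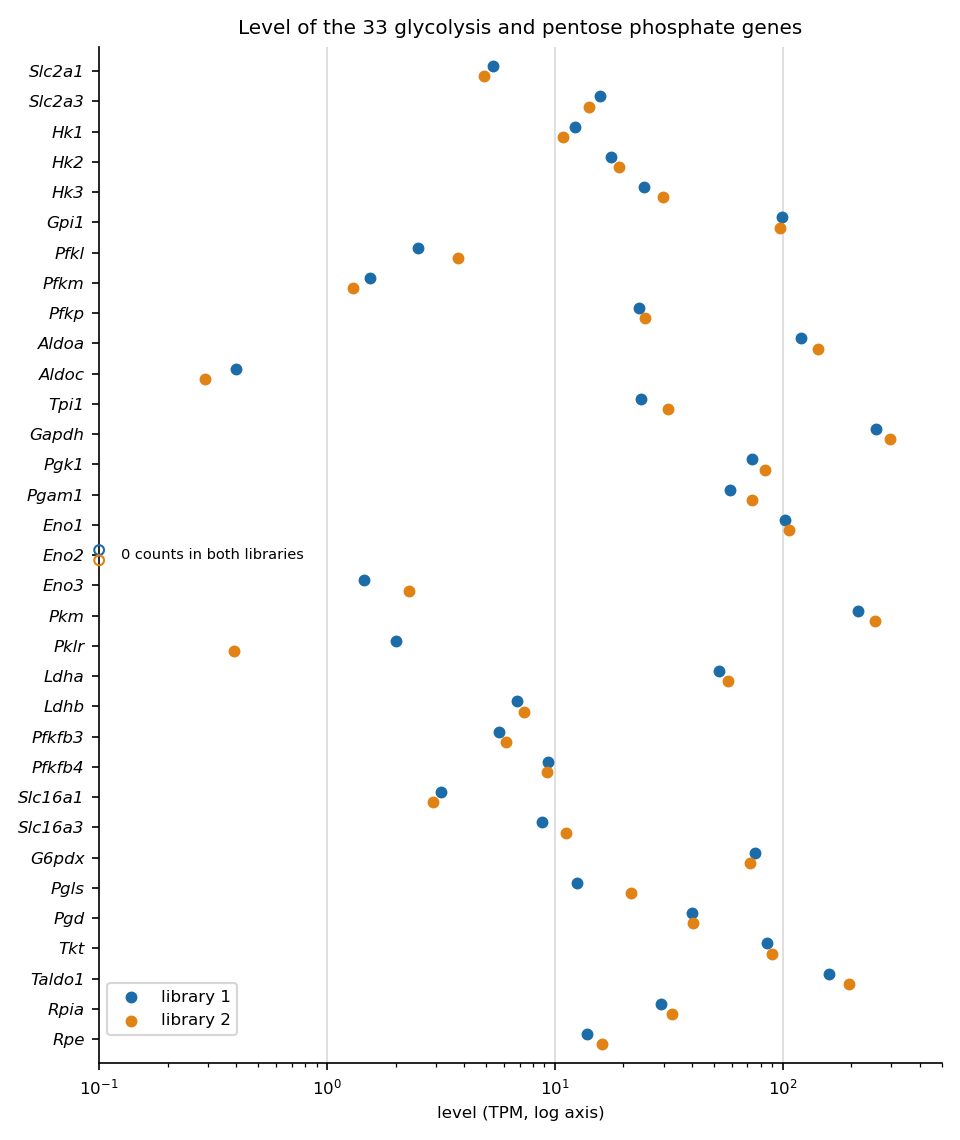
Level of each of the 33 members in library 1 (blue) and library 2 (orange) in TPM on a log axis, in pathway order from the top, with no error bars. The points of a gene lie close together beside the distance between genes, Pklr excepted, and levels run from 0 counts for Eno2 (open circles at the left edge) to 257 and 295 TPM for Gapdh.

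**Figure D2:**
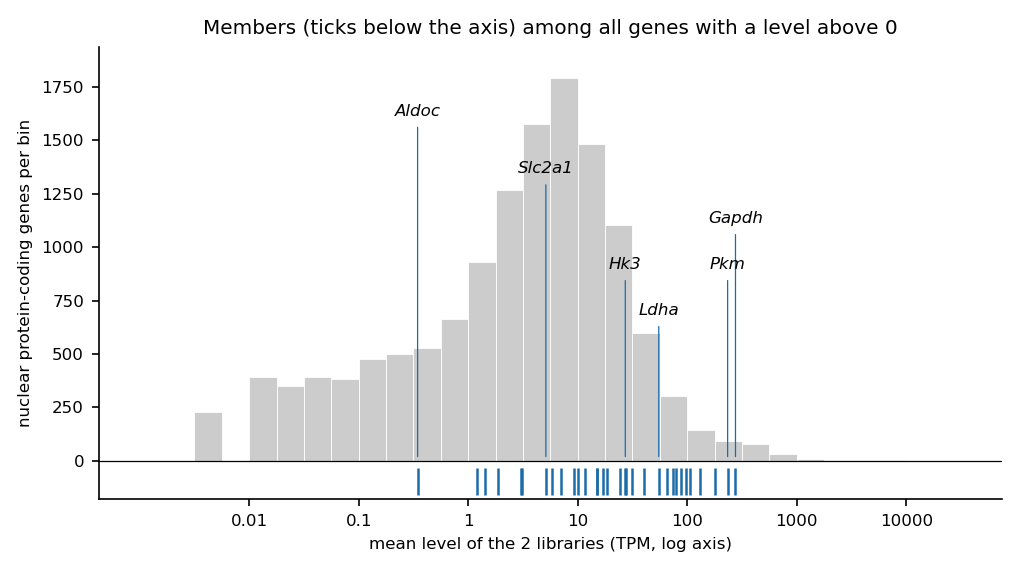
Histogram of the mean level of the 13335 nuclear protein-coding genes with a level above 0 (TPM, log axis), with a tick below the axis for each of the 32 members above 0. Most ticks lie to the right of the peak of the histogram, and Gapdh and Pkm lie in its upper tail.

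Glucose enters by facilitated transport and is then phosphorylated by a hexokinase, which traps it in the cell. Slc2a3, the high-affinity transporter GLUT3, had 15.8 TPM in library 1 and 14.1 TPM in library 2. Slc2a1, the widely expressed transporter GLUT1, had 5.34 and 4.90 TPM. Slc2a3 exceeded Slc2a1 in both libraries, by 2.95 and 2.88 times, and held 74.5% ± 0.339 of their summed TPM (SD, n = 2). In protein-coding transcripts alone its lead was smaller, at 1.79 and 2.20 times. With all listed family members counted its share was 47.3% and 43.1%, because Slc2a6, a transporter of the same family known as GLUT6, had 9.72 and 11 TPM.

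Among the 9 steps with several members, the leading gene held the lowest share at hexokinase, a step with 3 members. Hk3, a hexokinase known from leukocytes, had 24.6 TPM in library 1 and 29.7 TPM in library 2. Hk2, an isozyme that binds mitochondria and answers to insulin and hypoxia in muscle and fat, had 17.6 and 19.2 TPM. Hk1, the isozyme of brain and red cells, had 12.3 and 10.9 TPM. The order Hk3, Hk2, Hk1 held in both libraries, with Hk3 at 45.1% and 49.7% of the sum. The lead of Hk3 over Hk2 was 1.40 and 1.55 times, and it depends on division by length: in estimated counts Hk3 had 6523 and Hk2 6919 in library 1, and Hk3 had 8480 and Hk2 7389 in library 2. Hkdc1, another hexokinase, had 0 counts. Adpgk, which phosphorylates glucose with ADP in place of ATP and is no member of the 33, had 47.5 and 37.8 TPM, 1.93 and 1.27 times the level of Hk3.

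Gpi1, which turns glucose 6-phosphate into fructose 6-phosphate, had 99.6 and 97.1 TPM in libraries 1 and 2. Phosphofructokinase, the committed step, was mostly Pfkp, the platelet-type subunit, at 23.5 and 24.9 TPM. Pfkl, the liver-type subunit, had 2.51 and 3.74 TPM, and Pfkm, the muscle-type subunit, had 1.54 and 1.30 TPM. Pfkp made up 85.3% and 83.2% of the subunits' TPM and exceeded Pfkl by 9.37 and 6.66 times.

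The enzymes that make and remove fructose 2,6-bisphosphate, the activator of phosphofructokinase, were lower. Pfkfb4 had 9.32 and 9.22 TPM and Pfkfb3, whose kinase activity far outweighs its phosphatase activity, had 5.69 and 6.08 TPM. The share of Pfkfb4 was 62.1% and 60.3%. In protein-coding transcripts alone its lead over Pfkfb3 was 3.84 and 2.43 times, against 1.64 and 1.52 times over all transcripts. Pfkfb2, the highest family member outside the 33, had 2.00 and 1.99 TPM.

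Among the members, aldolase RNA came almost wholly from Aldoa, and the triose phosphate steps have 1 member each. Aldoa, the muscle and general aldolase, had 120 TPM in library 1 and 143 TPM in library 2, and Aldoc, the brain form, had 0.40 and 0.29 TPM from 78 and 51 counts. Tpi1, which interconverts the triose phosphates, had 23.9 and 31.3 TPM, the lowest level among the leading genes of the steps from aldolase to lactate dehydrogenase. Gapdh, which reduces NAD+ while oxidising glyceraldehyde 3-phosphate, was the highest member at 257 and 295 TPM and ranked 153 among nuclear protein-coding genes by mean level.

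Pgk1, the first ATP-making enzyme of the pathway, had 73.3 TPM in library 1 and 83.5 TPM in library 2. Pgam1, the general phosphoglycerate mutase, had 58.4 and 73.5 TPM. The mutase of the red cell shunt, Bpgm, is no member and had 2.60 and 3.40 TPM. Among the member enolases nearly all TPM was of Eno1, at 102 and 107 TPM or 98.6% and 97.9% of their sum. Eno1b, a protein-coding gene 99.5% identical to Eno1, is no member and is left out of that sum. It had 11.4 and 14.3 TPM. Eno1 was 8.94 and 7.51 times as high as Eno1b, and the division of reads between these near-identical genes is uncertain. Eno3, the muscle form, had 1.46 and 2.29 TPM. Eno2, the neuronal form, had 0 counts in both libraries, which at 3 counts per library allows up to 0.0317 and 0.0282 TPM by counting error. The deposited intervals for Eno2 lay higher, at 0.136 to 0.481 TPM in library 1 and 0.123 to 0.437 TPM in library 2.

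Pkm had 214 TPM in library 1 and 254 TPM in library 2, from 47380 and 63473 counts. Pklr, the liver and red cell pyruvate kinase, had 2.00 and 0.390 TPM from 179 and 117 counts. In library 1, 70.0% of the Pklr TPM lay in Pklr-205, a noncoding transcript of 345 bases to which 18 counts were assigned. Its protein-coding transcript Pklr-202 had 0.60 and 0.39 TPM from 161 and 117 counts, so the libraries differed less in that transcript than in the gene's TPM. Pkm held 99.1% and 99.8% of the step.

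Lactate dehydrogenase was mostly Ldha, the subunit that favours lactate formation, at 52.6 TPM in library 1 and 57.5 TPM in library 2. Ldhb, the heart-type subunit, had 6.81 and 7.35 TPM. Ldha exceeded Ldhb by 7.73 and 7.82 times and held 88.6% ± 0.0885 of the TPM (SD, n = 2), the smallest SD among the 9 steps. Of the 2 member lactate transporters, Slc16a3, the transporter MCT4 of glycolytic cells, had 8.74 and 11.2 TPM. Slc16a1, the transporter MCT1, had 3.15 and 2.92 TPM. Slc16a3 held 73.5% and 79.3% of their TPM, and 58.1% and 61.2% of their counts. Its lead over Slc16a1 was 2.77 and 3.83 times, and 2.35 and 2.71 times in protein-coding transcripts alone. Slc16a7, the highest monocarboxylate transporter outside the 33, had 5.77 and 3.22 TPM. With further transporters of the step counted, the share of Slc16a3 was 49.5% and 64.5%.

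**Figure D3:**
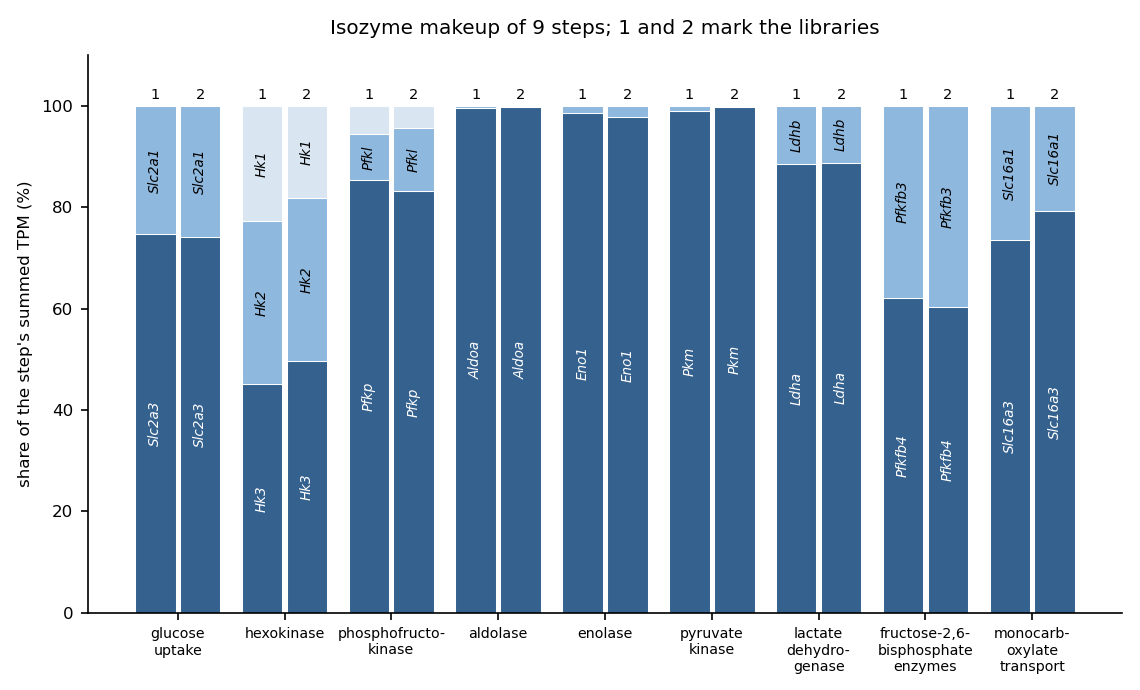
Share of each isozyme in the summed TPM of its step (percent, bars from 0 to 100) for the 9 steps with several members, with library 1 left of library 2 in each pair. The darkest part is the isozyme with the highest mean level, which is the same gene in both libraries at all 9 steps and exceeds 80% at 5 of them.

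At all 9 steps the leading member was the same in both libraries, and its deposited TPM interval lay above that of the next member isozyme. The level of these intervals is not stated in the deposited files. They were made for a posterior mean, and the TPM of Pkm in library 1 and of Hk1, Pkm and Pklr in library 2, and that of Eno2 at 0 in both, lay outside its own interval. Shares over 80% were seen for Aldoa, Pkm, Eno1, Ldha and Pfkp. The leads of Hk3, Pfkfb4, Slc2a3 and Slc16a3 were smaller, between 1.40 and 3.83 times.

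The oxidative branch of the pentose phosphate pathway was present at every step. G6pdx, its entry enzyme and the main control point, had 75.2 TPM in library 1 and 71.8 TPM in library 2. Pgls, which opens the lactone ring, had 12.5 and 21.5 TPM. Pgd, which makes the next NADPH, had 40.0 and 40.2 TPM. H6pd, the form of the endoplasmic reticulum, is no member and had 8.13 and 7.15 TPM. The level of G6pdx was 3.05 and 2.42 times that of Hk3, the leading hexokinase.

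The non-oxidative branch was higher still in Taldo1, the transaldolase, at 160 and 196 TPM in libraries 1 and 2. Tkt, the transketolase, had 85.7 and 89.7 TPM, and its relatives Tktl1 and Tktl2 had 0 counts. Rpia, which makes ribose 5-phosphate, had 29.2 and 32.8 TPM, and Rpe, which makes xylulose 5-phosphate, had 13.9 and 16.1 TPM. The 4 genes of this branch summed to 289 and 334 TPM and the 3 of the oxidative branch to 128 and 133 TPM. The median of the 20 glycolytic enzymes, lactate dehydrogenase included, was 25.7 TPM, with 13 of them at 10 TPM or more in both libraries. All 7 pentose phosphate genes passed that level, and 1 of the 6 transporters and fructose 2,6-bisphosphate enzymes did. The glycolytic enzymes that did not were Pfkl, Pfkm, Aldoc, Eno2, Eno3, Pklr and Ldhb, none the leading gene of its step. Each pentose phosphate step has 1 member, so these counts do not compare the pathways step for step.

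Not all of this RNA was protein-coding. Of the 32 members with counts, 29 had more than 50% of their TPM in protein-coding transcripts in both libraries and 23 had 90% or more. Over the 3619 nuclear protein-coding genes at 10 TPM or more in both libraries, 60.3% had 90% or more in both and 8.07% had 50% or less in both. Among the members, which were not limited to that level, only Gapdh had 50% or less in both libraries. Pklr and Pfkfb3 did so in library 1 alone. Gapdh was the clearest exception, with 31.0% and 30.3% of its TPM in protein-coding transcripts. Its leading transcript was Gapdh-206, a retained-intron model of 565 bases, with 55.1% and 57.3% of the gene's TPM and 141 and 169 TPM. The leading protein-coding transcript, Gapdh-203 of 1420 bases, had 61.6 and 77.8 TPM. By estimated counts the protein-coding part of Gapdh was 56.7% and 58.2%, because TPM divides by length and weights the short transcript more.

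With protein-coding transcripts alone Gapdh would stand at 79.4 and 89.2 TPM in libraries 1 and 2. Taken in the same way, Pkm, Taldo1, Aldoa, Eno1 and Gpi1 would lie above it in both libraries. Tkt, at 84.6 and 89.0 TPM, would lie above Gapdh in library 1 and just below it in library 2. Pfkfb3 had 42.7% of its TPM in protein-coding transcripts in library 1 and 62.5% in library 2. Its leading transcript was the protein-coding Pfkfb3-220 in library 1 and the retained-intron Pfkfb3-208 in library 2, and that choice rests on 49 and 82 counts for Pfkfb3-208. Pfkm led with Pfkm-202 in library 1 and Pfkm-201 in library 2, and Slc16a3 with Slc16a3-202 in library 1 and Slc16a3-201 in library 2, all protein-coding. Pklr led with the noncoding Pklr-205 in library 1 and the protein-coding Pklr-202 in library 2. The other 28 members with counts kept their leading transcript. Slc2a3 had 60.6% and 76.5% coding TPM, the rest being mostly the retained-intron Slc2a3-204 at 32.8% and 21.6%.

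**Figure D4:**
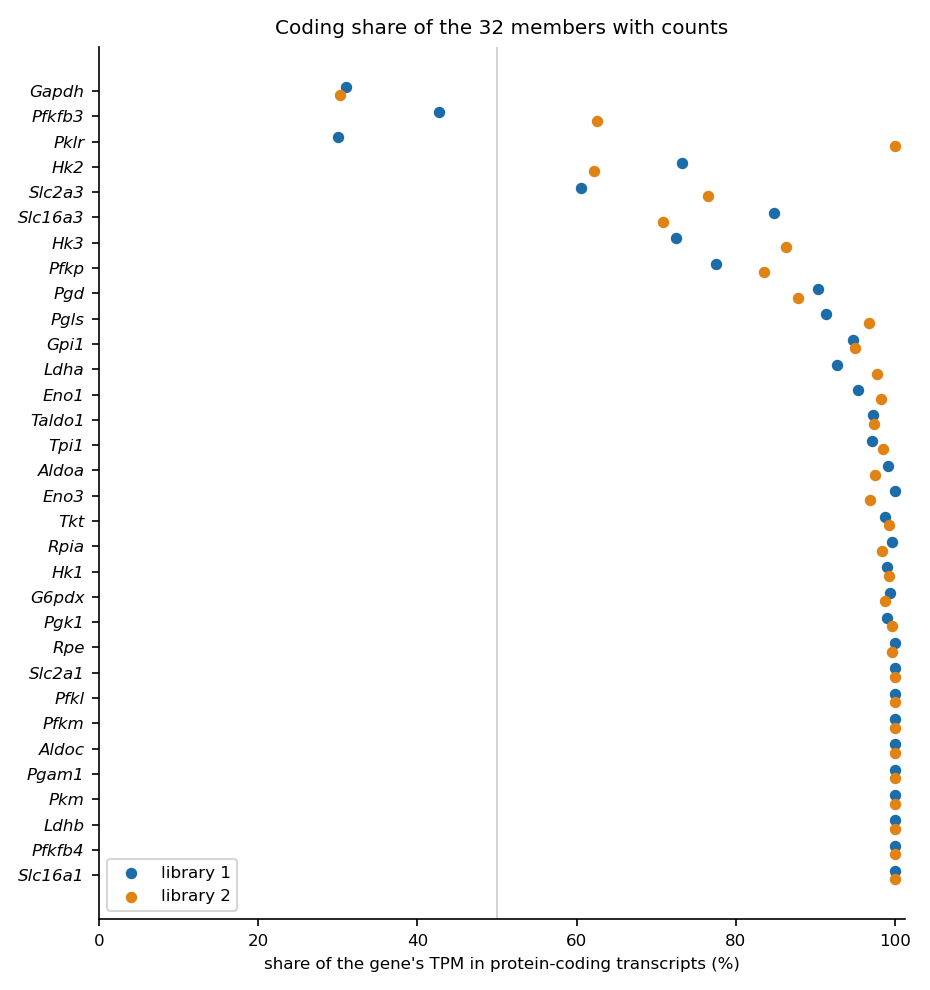
Share of each gene's TPM that lay in protein-coding transcripts (percent) in library 1 (blue) and library 2 (orange) for the 32 members with counts, lowest mean at the top; the vertical line marks 50%. Gapdh lies near 30% in both libraries, and the Pklr points lie at 30.0% in library 1 and 100% in library 2.

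Several members share sequence with copies elsewhere in the genome, so part of their level depends on how reads were divided. Copies were counted where a transcript matched at 95% identity or more over at least 300 bases and had a row. Gapdh had 70 such copies, which held 6.03% and 5.13% of the counts of gene and copies together in libraries 1 and 2. Eno1 had 2 copies with 9.10% and 10.5%, led by Eno1b, which is 99.5% identical. Pgk1 had 2 copies with 7.09% and 8.95%, Pgam1 had 1 with 2.57% and 2.88%, and Gpi1 had 1 with 0.951% and 1.06%. The counts of these 5 genes were not whole numbers, to within 0.005, in either library, nor was that of Ldha in library 2, so reads were divided between rows and these levels are uncertain.

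The libraries were then compared gene by gene with a two-sided exact binomial test on rounded counts, after scaling, over the 12081 genes whose mean count reached 10. This test compares the libraries and not conditions, and it knows counting error only. At an adjusted p below 0.05, 26 of the 32 tested members differed, against 65.6% of all genes tested. Of these, 11 were higher in library 1, against 32.6% of all genes, and 15 were higher in library 2, against 33.1%. Most of the differences were small: the median size of the log2 ratio was 0.142 over the members and 0.203 over all genes tested, and 22 of 32 members lay within 0.25 of 0. Only Pklr, Aldoc and Eno3 passed the test and also differed by at least 1.5-fold, 3 of 32 against 16.5% of all genes. The share of all genes within 0.25 of 0 was not computed. Depth was not matched either, as all genes tested reached down to a mean count of 10, where counting error widens ratios. These values therefore do not show that members were steadier than other genes.

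When a biological coefficient of variation of 0.1 was assumed in an edgeR exact test, 1 of 32 members passed, against 12.9% of all genes. That member was Pklr. Its counts were 179 in library 1 and 117 in library 2, a log2 ratio of 0.86 (95% interval 0.52 to 1.21, counting error), with an adjusted p of 1.4e-06 in the exact binomial test and 0.016 in the edgeR test. Erythroid markers moved the same way: 10 of 11 were higher in library 1 by the exact binomial test, against 32.6% of all genes tested, 8 of them by at least 1.5-fold, and the list's sum was 128 TPM in library 1, against 64.5 TPM in library 2. Klf1, an erythroid transcription factor chosen here after its values were seen, had 283 counts in library 1 and 75 in library 2. Of the tested lymphoid markers 6 of 8 were also higher in library 1, 4 of them by at least 1.5-fold. Of the neutrophil markers 10 of 13 were, 1 of them by that much. Monocyte and macrophage markers went the other way, with 3 of 11 higher in library 1 and 8 in library 2. Of 9 tested mast cell, basophil and eosinophil markers 3 were higher in library 1 and 4 in library 2. Of 7 tested megakaryocyte and platelet markers 1 was higher in library 1 and 3 in library 2. Over all genes tested 33.1% were higher in library 2. The part of any of these cell types in the Pklr difference was not tested.

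Aldoc had a log2 ratio of 0.85 (0.33 to 1.40) on 78 counts in library 1 and 51 in library 2, with an adjusted p of 0.0020 in the exact binomial test and 0.075 in the edgeR exact test. Eno3 was higher in library 2, at 133 counts in library 1 and 247 in library 2, a log2 ratio of -0.64 (-0.96 to -0.34), with an adjusted p of 5.9e-05 in the exact binomial test and 0.084 in the edgeR test. These 3 genes are the minor isozymes of their steps. Among members with over 1000 counts in both libraries, Pgls had the ratio farthest from 0, at -0.51 (-0.63 to -0.40). Pfkl, with 883 counts in library 1 and 1491 in library 2, had a like ratio of -0.51 (-0.63 to -0.39). G6pdx and Pgd, the enzymes on either side of Pgls, lay on the other side of 0, at 0.14 (0.11 to 0.17) and 0.12 (0.07 to 0.16). Tkt, with 25632 counts in library 1 and 30536 in library 2, had a log2 ratio of -0.01 (-0.03 to 0.02).

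**Figure D5:**
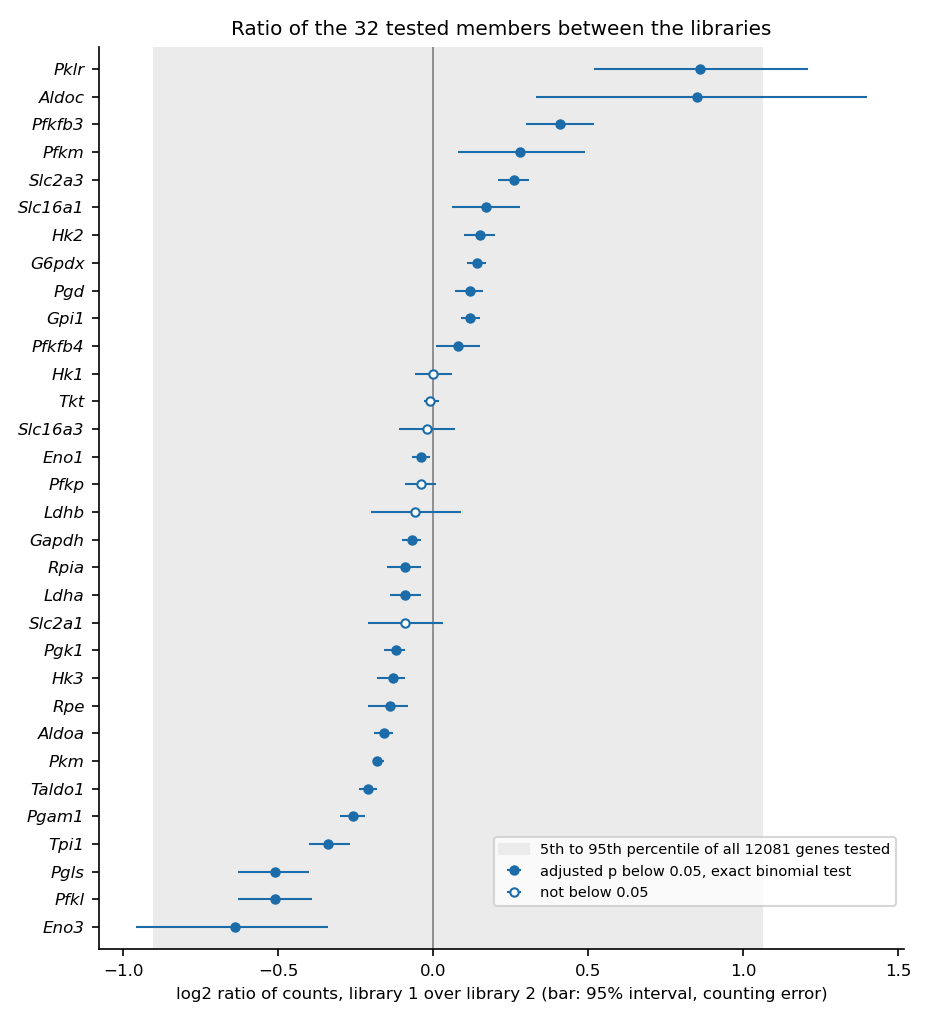
Log2 ratio of counts, library 1 over library 2, for the 32 tested members, with 95% intervals that cover counting error, filled where the exact binomial test gave an adjusted p below 0.05. The grey band runs from the 5th to the 95th percentile of all 12081 genes tested, -0.90 to 1.06, and all 32 points lie inside it.

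Neighbouring members had unlike levels. On chromosome 6, which holds 7 of the 33 genes, Eno2 (chr6:124760053-124769673), Tpi1 (chr6:124810586-124814296) and Gapdh (chr6:125161715-125166467) lie on the minus strand near each other. Their levels were 0 counts for Eno2, 23.9 and 31.3 TPM for Tpi1 and 257 and 295 TPM for Gapdh in libraries 1 and 2.

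Promoter sequence was examined for the 5-letter cores ACGTG and GCGTG, which hypoxia-inducible factors can bind, on both strands of RefSeq windows (GRCm38.p6) of 250 bases before to 50 after a start. A window was found for 32 of the 33 members, 46 windows in all. A core was present in 76.1% of member windows, against 62.8% of windows of genes at 10 TPM or more in both libraries and 43.8% of all windows. The longer motif CACGTG, which contains ACGTG and reads the same on both strands, was in 8.70% of member windows, against 10.5% and 7.15%. The median number of CG pairs per window was 19 in member windows, 22 in windows of genes at 10 TPM or more and 7 in all windows. A match is a description of letters, and the binding of no factor was measured.

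The 250 bases before the start are printed for the lactate dehydrogenase pair, whose levels differed by over 7 times in both libraries, with the cores on either strand in capitals. The Ldha window lies at chr7:46845554-46845803 on the plus strand and ends 36 bases before the start of Ldha-202, the leading transcript. It has 5 matches to ACGTG, 4 of them in 2 copies of CACGTG, each of which counts once on either strand, and no GCGTG. The Ldhb window lies at chr6:142507958-142508207 on the minus strand and ends at the base before the start of Ldhb-201. It has 1 match to GCGTG and no ACGTG. The share of G and C was 67.2% in the printed Ldha window, against 56.4% in the Ldhb window.
Ldha promoter: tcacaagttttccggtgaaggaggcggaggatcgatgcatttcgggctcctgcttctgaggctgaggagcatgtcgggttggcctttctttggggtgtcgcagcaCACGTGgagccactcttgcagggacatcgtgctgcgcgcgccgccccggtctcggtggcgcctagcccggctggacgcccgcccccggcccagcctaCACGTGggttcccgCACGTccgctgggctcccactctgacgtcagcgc
Ldhb promoter: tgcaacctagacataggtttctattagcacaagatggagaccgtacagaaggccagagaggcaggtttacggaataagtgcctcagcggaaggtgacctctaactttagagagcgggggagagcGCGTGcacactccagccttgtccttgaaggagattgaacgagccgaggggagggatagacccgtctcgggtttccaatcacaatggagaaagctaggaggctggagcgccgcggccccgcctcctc

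The neighbours of the pathway were read from other lists. Over all nuclear protein-coding genes 16.9% reached 10 TPM in both libraries, the share to set beside each list's count at that level. Of 26 further isozymes listed for the same steps, 1 reached 10 TPM in both libraries and 18 lay under 1 TPM in both. The exception on the list was Adpgk, followed by Slc2a6, H6pd and Slc16a7. Eno1b, the near-identical relative of Eno1, was not on the list and had 11.4 TPM in library 1 and 14.3 TPM in library 2. Pyruvate entry to mitochondria had 5 of 13 genes at 10 TPM or more, led by the carrier subunits Mpc2, at 30.2 and 39.7 TPM in libraries 1 and 2, and Mpc1, at 27.0 and 39.4 TPM. The pyruvate dehydrogenase subunits Pdha1 and Pdhb had 28.9 and 30.6 TPM and 21.9 and 26.9 TPM. By the exact binomial test 2 of the 12 tested genes of this list were higher in library 1 and 6 in library 2. Over all genes tested the shares were 32.6% and 33.1%.

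Of 17 gluconeogenesis and glycogen genes, 3 reached 10 TPM in both libraries, a share of 17.6%, near the 16.9% of all nuclear protein-coding genes. At 1 TPM or more in both there were 11 of 17, against 42.4% of all genes. The list's median was 3.96 TPM, against 0.280 TPM over all genes and 18.4 TPM over the members. The highest was Pygl, the liver-type glycogen phosphorylase, at 84.8 TPM in library 1 and 89.6 TPM in library 2, and its brain-type relative Pygb had 8.81 and 7.18 TPM. Ugp2, which makes UDP-glucose for glycogen, had 28.1 and 33.1 TPM, and the phosphoglucomutase Pgm2 had 10.1 and 10.4 TPM. By the exact binomial test 3 of the 12 tested genes of this list were higher in library 1 and 4 in library 2. The shares over all genes tested were 32.6% and 33.1%.

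Other sources and users of NADPH, with the shuttle enzymes, had 8 of 12 genes at 10 TPM or more. Gsr, which spends NADPH to reduce glutathione, had 107 TPM in library 1 and 113 TPM in library 2, above G6pdx. Idh1, the cytosolic NADPH-making isocitrate dehydrogenase, had 88.0 and 104 TPM. Me2, the mitochondrial malic enzyme, had 40.7 and 45.5 TPM, and Mdh2, the mitochondrial malate dehydrogenase, had 29.7 and 28.8 TPM. By the exact binomial test 2 of the 11 tested genes of this list were higher in library 1 and 5 in library 2. Among all genes tested 32.6% and 33.1% were.

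Among 18 regulators of glycolytic genes, 8 reached 10 TPM in both libraries. Hnrnpa1 had 187 TPM in library 1 and 207 TPM in library 2, and Hnrnpa2b1 had 128 and 122 TPM. Both are known, with Ptbp1, for repressing the PKM1 exon. Ptbp1, named here after its values were seen, had 33.1 and 26.9 TPM. Srsf3, a factor known to favour the PKM2 exon, had 108 and 127 TPM, and Txnip, which restrains glucose uptake, had 84.3 and 96.4 TPM. By the exact binomial test 6 of these 18 genes were higher in library 1 and 5 in library 2. Among all genes tested 32.6% and 33.1% were. Hypoxia targets outside glycolysis had 2 of 12 genes at 10 TPM or more, Bnip3l at 46.0 and 39.5 TPM and Ndrg1 at 17.6 and 21.5 TPM, with Kdm3a at 5.69 and 6.28 TPM and P4ha1 at 4.78 and 6.88 TPM. By the exact binomial test 1 of the 10 tested genes of that list was higher in library 1 and 5 in library 2. The same shares of all genes tested, 32.6% and 33.1%, apply here.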

How the data were processed

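Total RNA-seq of 2 libraries of 1 group was used. The build was mm10 and the annotation GENCODE M4, per the text files that the authors deposited; the quantifier was not given in the sources used here, and the column names are those RSEM writes. The authors deposited expected counts (estimated, not normalized), TPM with a posterior mean, FPKM, and the percent of a gene's TPM in each transcript. The bounds of the deposited TPM interval were used as a signal of unstated level.

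The expected counts of library 1 summed to 42703213 and those of library 2 to 50532821, with 37377787 and 44809299 of them in nuclear protein-coding genes. Of 43346 mouse gene IDs, 42462 matched GENCODE M21 (same build), which gave symbols, types and coordinates, and 884 did not. Transcripts of any type other than protein-coding count as noncoding. No column of another series was present.

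Expected counts were rounded and scaled with edgeR 4.0.16 (TMM, R 4.3.3). With 1 group of 2 libraries the quasi-likelihood test could not be fitted, so a two-sided exact binomial test with Benjamini-Hochberg adjustment over 12081 genes was used, at 0.05. Alternatives were DESeq2 1.42.0 size factors, total counts, other count filters, a 1.5-fold minimum and an edgeR exact test at an assumed BCV of 0.1. The script was tested on simulated Poisson counts with 200 changed genes. Such counts hold counting error only, as the test assumes, so its behaviour under biological spread was not tested. Values are per library or mean ± SD; intervals (95%) and the limit of 3 counts cover counting error only. The libraries share a donor label, so their spread may be technical. Copies were found with BLAST+ 2.17.0; promoters are from RefSeq.

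Members and lists were chosen with earlier results of these data known. All members were named; of each other list the 4 genes with the highest mean TPM, of each marker list 2, at each step the highest further isozyme above 1 TPM, and leading transcripts that were noncoding or differed between libraries. Some listed genes are not reported here by name. Pc had no row under that symbol and was not analysed here.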

Additional observations from a re-analysis of the deposited data

How the results depend on the processing

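The 9 leading isozymes were the same with the posterior mean TPM, with protein-coding transcripts only, and without replicate 1 or 2. By mean share of counts not divided by length they were also the same, although Hk2 led Hk3 in library 1. With further isozymes added 8 remained, since Adpgk exceeded Hk3. The number of members at 10 TPM or more ranged from 20 to 28 over all alternatives, against 21, and the PKM2 share ranged from 95% to 96%. Members over 50% coding numbered 29 to 32, against 29. With TPM rescaled to nuclear protein-coding genes, genes of the other pathway lists at 10 TPM or more numbered 52, against 27. An assumed BCV of 0.1 left 1556 genes and 1 member that differed between libraries, against 7931 and 26. A minimum of 1.5-fold left 1989 genes and 3 members. Another scaling or count filter left 6749 to 8566 genes and 25 or 26 members, and total counts as scaling lost Eno1 (log2 ratio -0.03). No member past the threshold changed the sign of its log2 ratio under these alternatives. No paired analysis was possible because the libraries form 1 group and there is nothing to pair them with. Genes under about 10 counts, such as Eno2, cannot be compared at this depth.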

Other observations

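The deposited TPM and the counts disagree on the size of a few differences between libraries, because the effective length of a gene depends on which transcripts its reads were assigned to. Effective lengths differed by over 0.25 on the log2 scale in 5 of the 32 members with counts. The largest case was Pklr, at 894 bases in library 1 and 2666 bases in library 2. Library 1 had 2.00 TPM of it and library 2 had 0.390 TPM, while its counts after scaling gave a log2 ratio of 0.86. Pfkfb3 had 2618 and 1923 bases, and was 0.41 higher in library 1 on the log2 count scale but had 5.69 TPM in library 1 and 6.08 TPM in library 2.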
